A study of Mus musculus with 2 samples.

Results

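The accessible chromatin described here lies in and around 10 genes of fibroblast growth factor (FGF) signalling: the receptor genes Fgfr1, Fgfr2, Fgfr3 and Fgfr4, the ligand genes Fgf9, Fgf18, Fgf2 and Fgf10, and the feedback genes Spry2 and Spry4. Every ATAC-seq peak of the proximal or the distal femur that lay inside one of these genes or within 100 kb of it was taken, by position alone. Peaks of the 2 femur ends that overlapped by 1 bp or more were joined into one region, and a region was called shared when it held peaks of both ends and single-end when it held peaks of 1 end only. With the gene spans of GENCODE mouse release 21, 94 of the 32388 merged regions of the series qualified. The annotated span of Fgfr2 is 2960900 bp long because of 1 of its 27 transcripts, Fgfr2-217, and 39 of the 94 regions were reached only through that transcript. Without it Fgfr2 measured 103813 bp and 55 regions remained, and these 55 are described below unless the annotated span is named.

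ATAC-seq uses the Tn5 transposase to cut and tag accessible DNA. The groups were the proximal and the distal cartilaginous ends of the femur from FVBNJ mouse embryos at E15.5, both without treatment or genetic change. Ends of a litter, on average 8 animals, were pooled, 50000 dissociated cells entered each reaction, and 2 biological replicates per end were combined by the authors into 1 list of peak positions. The tissue held all chondrocyte zones and perichondrium, so an absent peak can come from fewer cells of a type or from less open chromatin per cell, and these cannot be told apart.

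The lists held 28257 proximal and 27958 distal peaks, all on the 19 autosomes, without heights or scores. Every value below is therefore a position, a width or a count without replicate error, and no test between the ends was possible. A region missing from a list means only that no peak passed the authors' threshold there, and read depth was not analysed here. The labelled cell type was compared with marker genes by asking for a promoter region, a region whose nearest edge lay within 1 kb of a start site of the gene. Of 12 chondrocyte genes, 11 had one (not Matn1), 3 of them in 1 end only (Sox5, Comp and Snorc). For comparison, 59.1% of 20807 autosomal protein-coding genes had a promoter region. Promoter regions were present at 1 of 4 hypertrophic chondrocyte genes (Mef2c, not Col10a1, Ihh or Pth1r), 0 of 6 osteoblast and perichondrium genes, 0 of 5 skeletal muscle genes, 2 of 5 endothelial genes (Kdr and, in 1 end only, Tek), 0 of 4 autosomal blood genes, 1 of 4 neuronal genes (Snap25) and 0 of 3 keratinocyte genes. A gene without a promoter region could still hold regions inside it. These were Runx2 (6), Ptprc, Spi1 and Trp63 (2 each), and Pth1r, Ckm and Cdh5 (1 each).

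FGF ligands bind receptor tyrosine kinases on neighbouring or the same cells and, with heparan sulfate, activate the MAP kinase cascade and other pathways. In the growth plate Fgfr3 restrains chondrocyte proliferation, and its activating mutations in humans cause achondroplasia, while Fgfr1 is found in hypertrophic chondrocytes and Fgfr2 in the condensing mesenchyme and perichondrium. Fgf9 and Fgf18 are ligands of the developing skeleton, Fgf10 drives limb bud outgrowth through Fgfr2, and the Sprouty proteins encoded by Spry2 and Spry4 are induced by receptor signalling and dampen it.

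Sequences of 200 bp around the centre of 9 regions described below are shown as examples. These are intronic regions of 2 receptors and 2 ligands, the Fgf9 promoter region and the flanking region of Spry2 with 2 AP-1 letter matches. The distal-only regions of Fgfr4, Fgf2 and Fgf10 are also among them. They are the plus strand of the mm10 (GRCm38) reference, which is C57BL/6J and not FVBNJ, and hold no annotated exon. Capitals mark the letters of AP-1 (TGANTCA), SOX (ACAANGG), RUNX (ACCACA) or ETS (CCGGAA) on either strand, and where matches overlap they share capitals.
Fgfr1 intron 2 (chr8:25536920-25537119): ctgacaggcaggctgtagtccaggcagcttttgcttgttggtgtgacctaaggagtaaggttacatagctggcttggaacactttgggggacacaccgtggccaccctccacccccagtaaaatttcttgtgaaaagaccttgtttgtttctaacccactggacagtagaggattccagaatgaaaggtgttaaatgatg
Fgfr2 intron 10 (chr7:130184029-130184228): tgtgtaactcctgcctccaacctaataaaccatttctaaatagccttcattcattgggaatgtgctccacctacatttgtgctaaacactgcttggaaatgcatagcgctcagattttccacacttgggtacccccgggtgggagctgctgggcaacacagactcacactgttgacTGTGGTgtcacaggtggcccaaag
Fgfr4 distal only (chr13:55149054-55149253): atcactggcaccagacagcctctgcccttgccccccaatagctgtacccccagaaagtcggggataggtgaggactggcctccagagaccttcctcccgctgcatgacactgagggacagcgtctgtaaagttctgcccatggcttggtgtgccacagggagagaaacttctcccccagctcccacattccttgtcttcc
Fgf9 promoter (chr14:58071976-58072175): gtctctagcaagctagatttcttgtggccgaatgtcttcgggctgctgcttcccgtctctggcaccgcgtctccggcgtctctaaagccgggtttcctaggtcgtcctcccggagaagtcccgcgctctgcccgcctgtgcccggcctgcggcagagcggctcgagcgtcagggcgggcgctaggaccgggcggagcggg
Fgf18 intron 4 (chr11:33122847-33123046): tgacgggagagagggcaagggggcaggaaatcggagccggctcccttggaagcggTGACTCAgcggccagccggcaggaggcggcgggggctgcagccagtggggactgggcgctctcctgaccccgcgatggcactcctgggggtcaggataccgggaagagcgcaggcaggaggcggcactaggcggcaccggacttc
Fgf2 intron 1 (chr3:37360817-37361016): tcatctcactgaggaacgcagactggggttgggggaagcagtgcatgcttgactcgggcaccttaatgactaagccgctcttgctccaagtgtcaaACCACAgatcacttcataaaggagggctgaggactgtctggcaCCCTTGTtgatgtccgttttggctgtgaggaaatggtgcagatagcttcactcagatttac
Fgf2 distal only (chr3:37380341-37380540): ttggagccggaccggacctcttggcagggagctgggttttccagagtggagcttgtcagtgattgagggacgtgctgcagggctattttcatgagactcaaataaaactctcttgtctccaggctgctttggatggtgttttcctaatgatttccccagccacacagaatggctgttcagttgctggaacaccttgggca
Fgf10 distal only (chr13:118596943-118597142): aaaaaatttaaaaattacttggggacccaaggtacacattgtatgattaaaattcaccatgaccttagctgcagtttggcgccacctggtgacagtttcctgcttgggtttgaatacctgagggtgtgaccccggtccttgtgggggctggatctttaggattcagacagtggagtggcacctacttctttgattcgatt
Spry2 upstream (chr14:105922808-105923007): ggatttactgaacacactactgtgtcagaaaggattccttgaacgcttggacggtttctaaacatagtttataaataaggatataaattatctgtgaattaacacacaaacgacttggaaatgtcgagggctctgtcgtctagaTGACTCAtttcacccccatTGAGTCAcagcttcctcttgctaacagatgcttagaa

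Of the 55 regions, 48 were shared, 2 were proximal only and 5 were distal only. The single-end share was 12.7% (7 of 55, 95% Wilson interval 6.3 to 24%), beside 27.0% of all merged regions, 14.1% being proximal only and 12.9% distal only. Of the 55 regions, 26 (47.3%, 34.7 to 60.2%) lay within 1 kb of a start of a protein-coding gene, counting the starts of all its transcripts, beside 38.3% of all merged regions, which lies within the interval. Of these 26, 2 were single-end (7.69%, 2.14 to 24.1%) beside 10.6% of all such regions. Farther than 1 kb from every such start, 5 of 29 were single-end (17.2%, 7.6 to 34.5%) beside 37.3%. When only starts of protein-coding transcripts were counted, a choice made after seeing the data, 1 region of Fgfr2 changed sides, and the single-end shares were 2 of 25 (8%) beside 9.39% and 5 of 30 (16.7%) beside 37.2%. With the annotated span of Fgfr2, 18 of 94 regions were single-end (19.1%, 12.5 to 28.3%), 8 proximal only and 10 distal only. The intervals cover counting error only, and neighbouring regions of a gene are not independent. At the limit of 100 kb, the outermost region counted lay 91610 bp from Fgfr3 and the nearest one left out lay 101796 bp from Spry4, both shared.

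The receptor genes had 25 regions of which 24 were shared, and the 1 single-end region, at Fgfr4, was distal only (4% single-end, 0.71 to 19.5%). Of the 19 regions of the ligand genes, 16 were shared and 3 were distal only (15.8%, 5.52 to 37.6%). Of these 3, the region at Fgf10 lay within 100 kb of the GENCODE span but not of the RefSeq gene. The 11 regions of the feedback genes held 8 shared, 2 proximal-only and 1 distal-only region (27.3%, 9.75 to 56.6%), and all 3 of the latter lay downstream of Spry4. The 3 intervals overlap one another, and 27.0% of all merged regions were single-end. Families also differed in how many regions lay near starts. Farther than 1 kb from every start of a protein-coding gene, 1 of 12 receptor regions was single-end (8.33%, 1.49 to 35.4%). There, 1 of 8 ligand (12.5%, 2.24 to 47.1%) and 3 of 9 feedback regions (33.3%, 12.1 to 64.6%) were single-end, beside 37.3% of all such regions. A difference in single-end share between families was not tested. With the annotated span of Fgfr2 the receptor count was 64 with 12 single-end regions (18.8%, 11.1 to 30%), so that the low receptor share depended on how Fgfr2 was delimited.

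**Figure D1:**
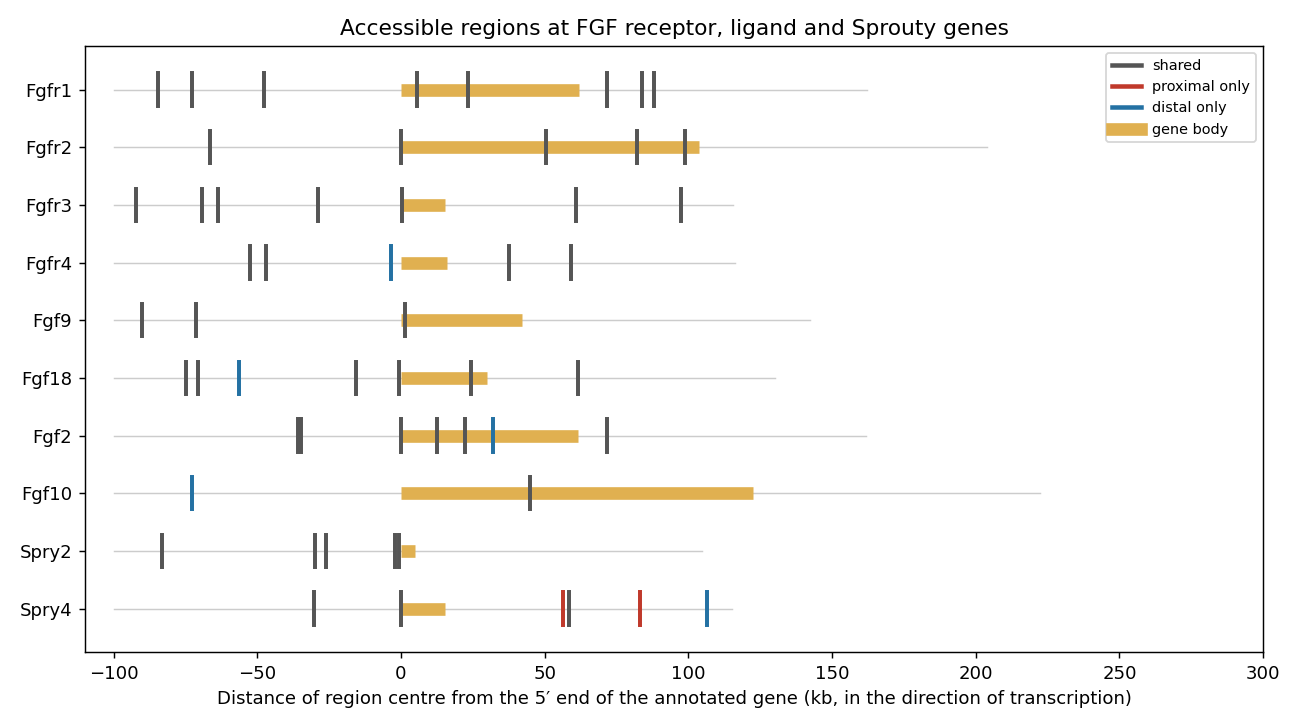
Positions of the 55 regions at the 10 genes. The horizontal axis is the distance of a region's centre from the 5′ end of the annotated gene in kb along the direction of transcription, each row is a gene with its body in yellow and its searched window in grey, and ticks are coloured by femur end. Red proximal-only ticks appear at Spry4 alone (2), and blue distal-only ticks appear at Fgfr4, Fgf18, Fgf2, Fgf10 and Spry4 (1 each).

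A promoter region was found at 9 of the 10 genes, the exception being Fgfr4, beside 59.1% of 20807 autosomal protein-coding genes. A region inside the gene or at its promoter was likewise present at 9 of 10, beside 64.1%. Fgfr2 and Fgf2 each had 2 promoter regions, which made 11 in all, 559 to 1222 bp wide with a median of 967 bp, and 10 of the 11 were shared.

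Fgfr1 (chr8:25513654-25575718, plus strand), the receptor of hypertrophic chondrocytes, had 8 regions, the most of the 10 genes, and all were shared. Its promoter region lay over the start sites of 7 of its transcripts, including Fgfr1-201 at 25518759, and covered part of exon 1 of Fgfr1-215. The proximal peak there ran from 25518557 to 25519659 (1103 bp) and the distal peak from 25518555 to 25519109 (555 bp). Both peaks thus began within a few bases of each other and the proximal one reached farther into the gene. Intron 2 of Fgfr1-215 held another region, chr8:25536428-25537611 (1184 bp), whose centre is shown above and held none of the 4 motifs. The widest region outside the promoter was chr8:25440129-25441691 (1563 bp), 71963 bp upstream of the gene, where 600 bp were exonic in the annotation. Others lay 84298 bp and 47128 bp upstream and 9254 bp downstream. The remaining 2 were promoter regions of Letm2, whose product is a mitochondrial membrane protein, and of Nsd3, a histone methyltransferase gene.

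Fgfr2 (chr7:130162451-130266263 without Fgfr2-217, minus strand), the main receptor for Fgf10 in its epithelial isoform, had 5 regions, all shared. The promoter region chr7:130266008-130266611 covered the start sites of 5 transcripts. Its proximal peak was 604 bp and its distal peak 481 bp wide. The flanks held 1 region, 66167 bp upstream (550 bp). Intron 6 of Fgfr2-215 held a region of 818 bp in both lists (chr7:130215417-130216234), the widest outside the promoter regions. Intron 10 held chr7:130183859-130184397 (539 bp), shown above with its RUNX letters. The region chr7:130167156-130167761 touched exon 17 of Fgfr2-215 and counted as a promoter region only because it lay 123 bp from the start of the retained-intron transcript Fgfr2-221, which is not protein-coding, and it was the region that changed sides above. It held both AP-1 and RUNX letters in its central 200 bp.

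The 39 regions reached only by Fgfr2-217 held 28 shared, 6 proximal-only and 5 distal-only regions. Their single-end share was 28.2% (16.5 to 43.8%), beside 27.0% of all regions. Of these regions, 19 were promoter regions of 18 other protein-coding genes, among them Ate1, Tacc2, Htra1, Bub3 and Ctbp2, and 30 protein-coding genes start in the added stretch. RefSeq ends the gene at 130266808.

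Fgfr3 (chr5:33721674-33737068, plus strand), the receptor of proliferating chondrocytes, had 7 regions, all shared, but only its promoter region lay inside the gene. That region, chr5:33721554-33722301, was 730 bp wide in the proximal and 748 bp in the distal list, covered the start sites of 6 transcripts and held ETS letters near its centre. It is exonic in the annotation over its whole 748 bp, and its sequence is therefore not printed. The widest region outside the gene's promoter was that at the joint start of Tacc3, a spindle protein gene, and Tmem129 (1333 bp). Slbp, Letm1 and the pair Fam53a and Gm9903 owned another 3. Only 2 of the 7 were no promoter region: one 28589 bp upstream (chr5:33692229-33693085, 857 bp) and one 81844 bp downstream (619 bp) with AP-1 letters, which lay 1195 bp from a start of Nsd2.

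Fgfr4 (chr13:55152640-55168759, plus strand), encoding a receptor better known from liver and muscle, was the only member with no region at its promoter or in its body. The region nearest to it, chr13:55148913-55149394 (482 bp), lay 3246 bp upstream and was in the distal list only. It is shown above and held none of the 4 motifs. Of its 4 shared regions, 3 were promoter regions of Uimc1, Zfp346 and the histone methyltransferase gene Nsd1, the last being the widest at 1860 bp. The other shared region lay 21173 bp downstream.

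Fgf9 (chr14:58070547-58112720, plus strand) had 3 regions, all shared. The promoter region chr14:58071796-58072354 was 559 bp in the proximal and 485 bp in the distal list and lay 332 bp from the start of Fgf9-201. It covered no start site, lay inside the gene and counted as a promoter region only through that transcript. The gene starts of GENCODE (58070547) and RefSeq (58070671) lay more than 1 kb before it. This region had the highest ratio of observed to expected CpG dinucleotides of the 11 promoter regions, 1.09. The others were the promoter region of Micu2, a mitochondrial calcium uptake gene (876 bp, the widest), and a region 89863 bp upstream with AP-1 letters that lies within Micu2.

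Fgf18 (chr11:33117430-33147400, minus strand), whose product is a ligand of Fgfr3 in cartilage, had 7 regions, 6 of them shared. The promoter region chr11:33147651-33148735 lay 251 bp upstream of the start, with peaks of 1058 bp (proximal) and 1085 bp (distal). Intron 4 of Fgf18-201 held a region of 953 bp (chr11:33122470-33123422), shown above with AP-1 letters, 877 bp wide in the proximal and 953 bp in the distal list. The widest region outside the promoter was that of Npm1, encoding a nucleolar protein (1514 bp, 14744 bp upstream). The distal-only region, chr11:33203414-33203806 (393 bp), was at the promoter of Tlx3, a homeobox gene of neuronal development, 56014 bp from Fgf18. Another 2 upstream regions, at 70222 bp and 74322 bp, were nearest to the start of Tlx3, and the last lay 31404 bp downstream.

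Fgf2 (chr3:37348346-37410108, plus strand), a ligand without a signal peptide, had 7 regions, 4 of them inside the gene. The promoter region chr3:37347937-37348903 was wider in the distal list (967 bp) than in the proximal list (647 bp, 37348151 to 37348797). The distal-only region chr3:37379980-37380901 (922 bp) covered the start at 37380755 of the protein-coding transcripts Fgf2-202 and Fgf2-203, within intron 1 of Fgf2-208. It was the only single-end promoter region among the 11 and the widest of the 7 single-end regions. Intron 1 also held 2 shared regions between these starts, chr3:37360601-37361232 (632 bp) with SOX and RUNX letters and chr3:37370080-37371064 (985 bp) with SOX letters. The widest region outside the promoters was the joint promoter of Spata5 and Nudt6, a gene antisense to Fgf2 (1559 bp, 8999 bp downstream). A further 2 lay at the starts of Bbs12 and Cetn4.

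Fgf10 (chr13:118669791-118792115, plus strand) had 2 regions, the fewest of the 10 genes. The promoter region, over the start of Fgf10-201 at 118714699, was 1201 bp in the proximal list (118714217 to 118715417) and 526 bp in the distal list (118714196 to 118714721). The peaks again began close together, and the distal one ended just past the start site. The other region, chr13:118596873-118597211 (339 bp, shown above), was distal only and lay 72580 bp upstream of the annotated gene. RefSeq starts the gene at 118714699 rather than 118669791, and from that start the region lies beyond 100 kb. It was therefore counted only through the GENCODE span.

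Spry2 (chr14:105891947-105896819, minus strand) had 5 regions, all shared and all upstream of the gene, and for each of the 5 the nearest start of a protein-coding gene was that of Spry2 itself. The promoter region chr14:105896845-105898048 was 1198 bp in the proximal and 1169 bp in the distal list. A region 1805 bp upstream held ETS letters (512 bp). Others lay at 25680 bp (818 bp, shown above with 2 AP-1 matches), 29694 bp (704 bp, RUNX letters) and 82707 bp (1074 bp, the widest outside the promoter).

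Spry4 (chr18:38586247-38601415, minus strand) had 6 regions, of which 3 were single-end, the most of any member. The promoter region chr18:38600777-38601886 was 1110 bp in the proximal and 1028 bp in the distal list and covered the start and part of exon 1. A shared region lay 29770 bp upstream (1094 bp), and the widest outside the promoter, shared, 42605 bp downstream (1290 bp, AP-1 letters). A proximal-only region of 589 bp stood 40898 bp downstream, close to that shared region, and another of 634 bp stood 67705 bp downstream. The distal-only region, 91150 bp downstream, was the narrowest of all 55 (295 bp). The regions at 67705 and 91150 bp were nearer to the start of Ndfip1 than to that of Spry4.

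**Figure D2:**
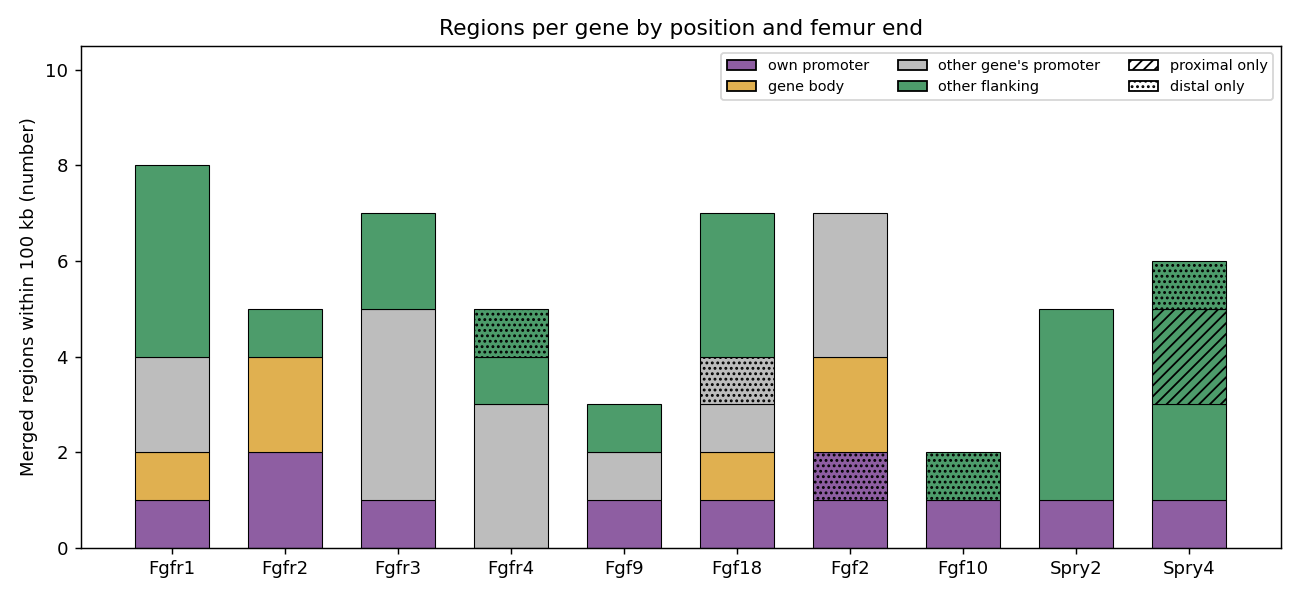
Merged regions at each gene by position. The vertical axis is the number of regions inside or within 100 kb of the gene, colours give the position (own promoter, rest of the gene body, promoter of another protein-coding gene, other flanking sequence), and hatching marks proximal-only and dots distal-only regions. Fgfr1 has the most regions (8) and Fgf10 the fewest (2), and Fgfr4 alone lacks an own promoter region.

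Of the 55 regions, 11 were promoter regions of the members, 15 were promoter regions of other protein-coding genes and 29 were neither. By family, other genes owned 9 of 25 regions at the receptors, 6 of 19 at the ligands and 0 of 11 at the feedback genes. The nearest start of a protein-coding gene was that of the member for 12 of 25 receptor regions, 10 of 19 ligand regions and 9 of 11 feedback regions, 31 in all, of which 4 were single-end. No promoter region of another protein-coding gene lay in the windows of Fgfr2, Fgf10, Spry2 or Spry4. Inside the genes lay 7 receptor, 7 ligand and 1 feedback region.

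The number of regions per gene, 2 to 8, was close to that of other genes, whose quartiles were 3, 5 and 8. Fgfr1 had more regions than 75% of autosomal protein-coding genes and Fgf10 more than 14.7%. Windows differ in length with the gene, so the counts were also divided by the sequence searched. Per 100 kb, Fgfr3 (3.25), Fgfr1 (3.05) and Fgf18 (3.04) had the highest densities, Fgf2 (2.67), Spry4 (2.79), Spry2 (2.44) and Fgfr4 (2.31) followed, and Fgfr2 (1.65), Fgf9 (1.24) and Fgf10 (0.62) the lowest. The quartiles over all genes were 1.1, 2 and 3.2, so that Fgfr3 lay just above the upper and Fgf10 below the lower quartile. The density of Fgfr2 with the annotated span was 1.39.

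**Figure D3:**
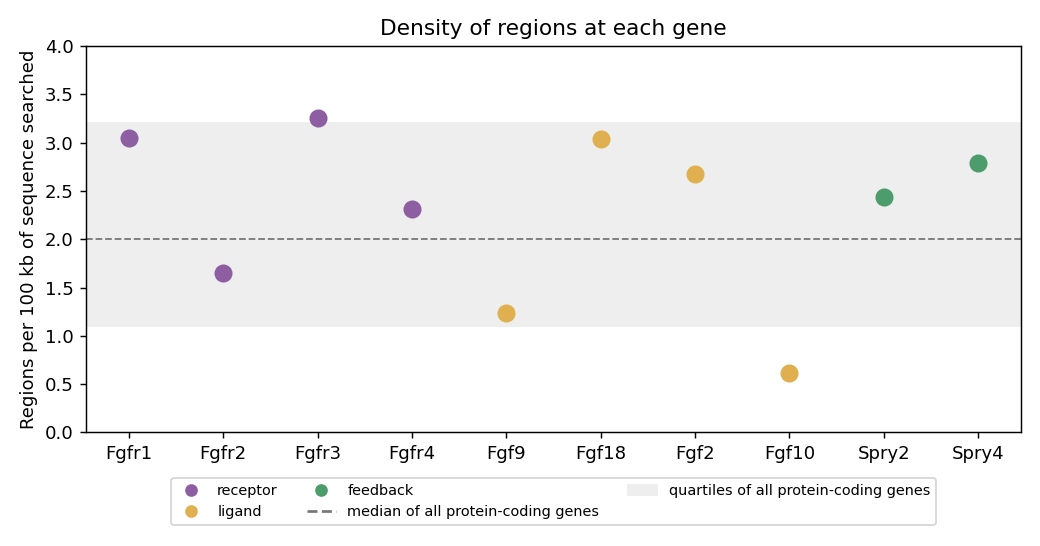
Density of regions at each gene. The vertical axis is the number of merged regions per 100 kb of sequence searched, points are coloured by family, and the dashed line and grey band give the median (2) and quartiles (1.1 and 3.2) of 20807 genes. Of the 10 genes, 8 lie within the band, Fgfr3 (3.25) lies just above it and Fgf10 (0.62) below it.

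All 48 shared regions held exactly 1 peak per end, so their widths could be set side by side. The ratio of the proximal to the distal width had a median of 0.986 (quartiles 0.911 and 1.1), and the proximal peak was the wider in 19 of 48 (39.6%). Over 23450 such regions of the series the median was 1.02 (quartiles 0.946 and 1.12) and the proximal peak was wider in 57.1%. A difference of at least 1.5 times was found in 2 of 48 (4.17%) beside 6.22% of all. Both were promoter regions with the wider peak in the proximal list, at Fgf10 (ratio 2.28) and Fgfr1 (1.99). The Fgf2 promoter region had the lowest ratio, 0.669. A width is not a height, and the lists give none.

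**Figure D4:**
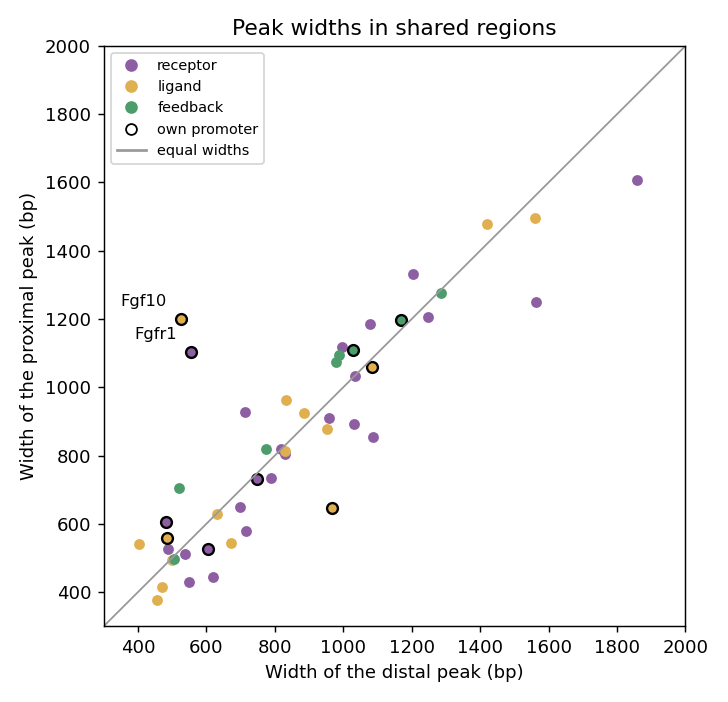
Widths of the proximal and distal peaks in the 48 shared regions. Each point is a region, with the distal width in bp on the horizontal and the proximal width in bp on the vertical axis, coloured by family, with black rims for the members' own promoter regions. Most points lie near the line of equal widths, and the promoters of Fgf10 (1201 against 526 bp) and Fgfr1 (1103 against 555 bp) lie far above it.

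The 7 single-end regions were narrower (295 to 922 bp, median 482 bp) than the 48 shared regions (455 to 1860 bp, median 932 bp), as in the whole series, where the medians were 504 bp for single-end and 812 bp for shared regions. The part of width in the single-end status was not tested. The 26 regions within 1 kb of a start of a protein-coding gene had a median GC content of 63.8% and a CpG ratio of 0.778, close to all such regions (60.9% and 0.728). The 29 others had 53.6% and 0.264, beside 47.5% and 0.236 in the series.

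Motif letters were counted in the central 200 bp. AP-1 letters, bound by Fos and Jun proteins, were in 10 of 55 regions (18.2%, 10.2 to 30.3%) beside 23.9% of all regions, and SOX letters in 3 (5.45%, 1.87 to 14.9%) beside 7.06%. RUNX letters were in 9 (16.4%, 8.86 to 28.3%) beside 13.7%, and ETS letters, bound among others by transcription factors downstream of FGF signalling, in 6 (10.9%, 5.1 to 21.8%) beside 9.12%. All 4 intervals include the share over all regions. Since motifs differ with distance from starts, the 29 regions beyond 1 kb were counted alone: AP-1 was in 27.6% beside 35.6%, SOX in 6.9% beside 7.93%, RUNX in 24.1% beside 17.8% and ETS in 10.3% (3.58 to 26.4%) beside 3.84%. The 3 regions behind the ETS share were 1 at Fgfr1, 1 at Spry2 and 1 at Spry4. With starts of protein-coding transcripts only, 30 regions lay beyond 1 kb, and the shares were 30% for AP-1, 6.67% for SOX, 26.7% for RUNX and 10% for ETS, beside 35.3, 7.95, 17.8 and 3.9% of all such regions. RUNX letters were in 4 of 11 feedback regions (36.4%, 15.2 to 64.6%), 4 of 25 receptor regions and 1 of 19 ligand regions, beside 13.7% of all regions. AP-1 letters were in 2, 4 and 4 of these, SOX letters in 0, 1 and 2, and ETS letters in 2 of each family. Of the feedback regions, 9 lay beyond 1 kb, where the RUNX share over all regions was 17.8%. The RUNX matches at 67705 and 91150 bp downstream of Spry4 were nearer to the start of Ndfip1. Searching whole regions gave RUNX letters in 5 of 11 feedback (45.5%), 10 of 25 receptor (40%) and 9 of 19 ligand regions (47.4%). The whole-region RUNX share over all regions was 38.5%. For the 29 regions beyond 1 kb, whole regions held ETS letters in 13.8% beside 10.4% and AP-1 in 55.2% beside 54.1%. SOX was in 24.1% of them beside 24.8%, and RUNX in 51.7% beside 41.4%. A difference between families was not tested. A match of letters is not evidence of binding.

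Promoter regions were also counted in the rest of the pathway, by role. Of 16 other autosomal ligand genes, 9 had a promoter region (56.2%, beside 59.1% of all genes), 8 of them shared, and that of Fgf15 was in the distal list only. The 7 without one were Fgf3, Fgf4, Fgf6, Fgf8, Fgf11, Fgf17 and Fgf21. Of 3 receptor-like and co-receptor genes only Fgfrl1 had one, and the Klotho genes Kl and Klb, co-receptors of the endocrine FGFs, had none. Adaptors and kinases had shared promoter regions at 11 of 13 genes, the exceptions being Ptpn11 and Mapk3. All 6 other autosomal feedback genes (Spry1, Spred1, Spred2, Spred3, Dusp6 and Il17rd) and all 3 ETS target genes (Etv1, Etv4 and Etv5) had shared promoter regions.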

How the data were processed

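ATAC-seq was performed on the cartilaginous ends of embryonic mouse femurs. The authors aligned the reads to mm10 with Bowtie2 (2.2.8 per the labels), removed duplicates, called peaks with MACS2 (2.1.1 per the labels), and merged 2 replicates per end at an IDR under 0.05. The lists deposited by the authors hold chromosome, start and end only, converted here to positions counted from 1, so their unit is a position and replicate error and depth are not analysed here.

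Peaks overlapping by 1 bp or more were merged. Gene models came from GENCODE mouse release 21 and sequence from GRCm38, read with pysam 0.24.0 and samtools 1.23.1. Computations used SciPy 1.17.1, NumPy 2.4.6 and Python 3.11.15, with figures from matplotlib 3.10.9. Shares have 95% Wilson intervals. The classification was tested on simulated data. Regions named with coordinates were all promoter regions, single-end regions inside a member or within 20 kb, and the widest other region of each member, and further ones were named after their values were seen. Other pathway genes are named where a promoter region was absent or single-end, and some where it was shared. Marker genes are named only in part. The members and gene lists were chosen with earlier results of these data known. Leaving out the transcript Fgfr2-217 was an alternative chosen after seeing the data.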

Additional observations from a re-analysis of the deposited data

How the results depend on the processing

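Each end had 1 list, so no result has a replicate error and no replicate could be left out. No paired analysis was possible because the lists combine the replicates and no result comes from a test. List membership also depends on sequencing depth, which was not analysed here. With annotated spans the counts were 94 regions at all members, 64 at receptors, 19 at ligands, 11 at feedback genes, 18 single-end and 55 inside genes. Leaving out Fgfr2-217, chosen after seeing the data, gave 55 in all, 25 at receptors, 7 single-end and 15 inside, because the window was shorter. Counting only regions whose nearest start of a protein-coding gene was the member's gave 31, 12 at receptors, 10 at ligands, 4 single-end and 16 inside. Dropping every peak narrower than its list's median gave 57, 41 at receptors, 10 at ligands, 6 at feedback genes, 9 single-end and 33 inside. Under this filter a shared region counted as single-end where a peak of only 1 end was kept. A window of 200 kb gave 19 at feedback genes. Searching whole regions for motifs, a longer sequence, raised the shares for AP-1 from 23.4 to 40.4%, SOX from 6.38 to 22.3%, RUNX from 22.3 to 46.8% and ETS from 12.8 to 33%, beside 40.9, 26.4, 38.5 and 24.6% of all regions searched in the same way. For the 55 regions the whole-region shares were 36.4, 20, 43.6 and 29.1%. The other 48 values stayed within 1.5 times of their count or within the interval of their share. On the shorter span of Fgfr2, the 55 regions became 38 within 50 kb and 79 within 200 kb, with 3 and 10 single-end. A reciprocal overlap of 50% gave 8 single-end regions, the Fgf10 promoter region being added because its peaks overlapped too little. Wide peaks left 34 regions, 6 of them counted as single-end, with promoter regions at 7 of 10 members. Of the 7 single-end regions described above, only the Fgf2 region of 922 bp was wide enough to stay. The rest of the 6 were shared regions that lost a peak, such as the promoter regions of Fgfr1 and Fgf10.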

Other observations

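By counts over 9 classes (promoter, gene body and 100-kb flank, each shared, proximal only or distal only), Stk4 and Rubcn had the same counts as Fgfr2 without Fgfr2-217, and Myo18a was 1 of 28 genes that differed by 1 region in sum. Fgf2, with the same number of regions inside it (4), differed by 1 from 7 genes. Among such ties the genes closest in length were named, which for Fgf2 were Micu3, Bcl2l14 and Gramd3. With the annotated span of Fgfr2, which held 44 regions, the most similar genes, Pde4d, Dlgap1 and Macrod2, differed by 22, 24 and 25 regions in sum. These are likenesses of counts over 1 list per femur end and carry no test.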
